A study of Homo sapiens with 33 samples.

Results

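The 8 genes GYPB, GYPC, SPTB, ANK1, EPB42, SLC4A1, RHAG and KEL encode proteins of the red cell membrane, and several of them carry blood group antigens. They were taken by gene symbol from the 58293 entries of a gene expression table of K562 cells, a human erythroleukemia cell line, and each symbol was found on 1 entry. The study profiled RNA bound by EZH2, the enzymatic subunit of the chromatin repressor PRC2, in these cells by RNA immunoprecipitation sequencing (RIP-seq). Of its 33 samples, 5 libraries are used here, each the only one of its kind, and all are from wild-type K562 cells at passages 15 to 25 that received no guide RNA. The first is the RIP-seq input RNA, for which no antibody was used, with an FPKM (fragments per kilobase of transcript, scaled to the mapped fragments of the library) and its confidence bounds for every gene. In the RIP protocol of the study, cells were fixed and nuclei were sonicated before the antibody step. How the input was prepared is not described in the sources used here. Its levels may therefore differ from those of mRNA in whole cells, which was not tested. The others are RNA of the cytoplasm, RNA of the nucleus, and the polyA+ and polyA− parts of the nuclear RNA, each with the number of reads on 900 RNA fragments found with EZH2 by RIP-seq. With 1 library of each kind there is no replicate error. The confidence bounds describe how well an FPKM was estimated in that library, and members are said to lie apart only where their bounds do not overlap.

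In a red cell, a mesh of spectrin lies under the lipid bilayer and is tied to it at separate anchor points. Ankyrin links β-spectrin to band 3, the anion exchanger, with protein 4.2 at the same site, and the Rh-associated glycoprotein belongs to that complex as well. Glycophorin C fixes the other ends of the mesh through protein 4.1. During erythroid maturation these components appear at different stages, and band 3 and protein 4.2 are known as late proteins. For the comparison, the genes were set in 3 groups: the glycophorins (GYPB and GYPC), the skeleton and anchor genes (SPTB, ANK1 and EPB42) and the remaining membrane genes (SLC4A1, RHAG and KEL), called late erythroid membrane genes here. That name is a label of the comparison and does not date the genes, since only band 3 among them is named above as late and protein 4.2 is counted with the skeleton.

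Promoters of 6 of the 8 members were matched by symbol in RefSeq (GRCh38.p14), with 8 start sites in all. ANK1 and SLC4A1 had no entry. The promoters of RHAG, GYPC, KEL and EPB42 are printed because these genes stood at the top, in the middle and near the bottom of the levels described next. Each run gives the 250 bases before the start, 5′ to 3′ on the strand of the gene. The RHAG promoter is chr6:49636840-49637089 on the minus strand, and that of GYPC is chr2:126655908-126656157 on the plus strand. The KEL promoter is chr7:142962364-142962613 and that of EPB42 is chr15:43221019-43221268, both on the minus strand. Capitals mark GATAA, the core letters bound by GATA factors, and CACCC, the letters bound by KLF factors, read on either strand (TTATC and GGGTG on the other).
RHAG: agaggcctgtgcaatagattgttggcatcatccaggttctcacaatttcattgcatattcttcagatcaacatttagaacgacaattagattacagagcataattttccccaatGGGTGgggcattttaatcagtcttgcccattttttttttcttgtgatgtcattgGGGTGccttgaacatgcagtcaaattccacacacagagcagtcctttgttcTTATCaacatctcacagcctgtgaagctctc
GYPC: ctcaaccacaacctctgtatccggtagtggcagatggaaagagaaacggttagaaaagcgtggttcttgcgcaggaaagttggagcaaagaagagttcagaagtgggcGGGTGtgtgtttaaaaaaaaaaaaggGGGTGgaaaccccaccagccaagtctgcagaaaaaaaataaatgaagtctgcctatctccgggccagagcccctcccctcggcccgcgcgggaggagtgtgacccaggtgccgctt
KEL: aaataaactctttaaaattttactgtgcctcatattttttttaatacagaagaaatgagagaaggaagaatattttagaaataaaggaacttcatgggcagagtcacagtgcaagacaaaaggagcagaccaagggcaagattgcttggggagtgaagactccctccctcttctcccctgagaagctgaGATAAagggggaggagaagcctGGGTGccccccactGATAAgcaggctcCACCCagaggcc
EPB42: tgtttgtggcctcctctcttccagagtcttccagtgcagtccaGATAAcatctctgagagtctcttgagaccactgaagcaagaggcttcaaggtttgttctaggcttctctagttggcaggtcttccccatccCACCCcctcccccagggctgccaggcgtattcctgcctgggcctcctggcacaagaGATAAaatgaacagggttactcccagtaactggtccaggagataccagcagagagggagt

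The RHAG promoter held GATAA with its first base 31 bases before the start, and CACCC at 136 and 82 bases. KEL had both motifs close to the start, with GATAA at 61 and 25 bases and CACCC at 39 and 12 bases. GYPC had CACCC at 142 and 116 bases and no GATAA in this window. EPB42 had GATAA at 207 and 60 bases and CACCC at 116 bases. Over the 8 promoters of members, 5 held GATAA, 7 held CACCC and 4 held both, and the motifs did not overlap each other in those printed. GYPB and SPTB each count more than once here, and the GYPB promoters share most of their bases. Counted by gene, 5 of the 6 members held GATAA, 6 held CACCC and 4 held both in a promoter. Of all 35116 promoters of the same length, 20.4% held GATAA, 54.7% held CACCC and 8.75% held both. The letters did not order the genes by level, since EPB42 carried both motifs at a low FPKM and GYPC lacked GATAA at the highest. These matches describe the sequence only, and binding was not measured.

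In the input RNA, 6 of the 8 members had an FPKM of at least 1, a level that 21.8% of all entries reached (12726 entries). All members are protein-coding, and 9728 of the 19757 protein-coding entries reached that level, a much larger share. The same 6 members had a lower bound above 0, a rule for which the share of all entries was not counted. GYPC, RHAG and ANK1 lay together at the top, SPTB, KEL and GYPB in the middle, and EPB42 and SLC4A1 near 0. Of the 28 pairs of members, 21 had bounds apart, and each of the 7 pairs with overlapping bounds fell inside one of these levels. The median over the 8 members was an FPKM of 11.7, beside 0.0680 over all entries, 0.902 over the 19757 protein-coding entries and 5.77 over the entries at FPKM 1 or more. In bulk RNA, fewer cells that express a gene and less RNA per cell cannot be told apart.

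GYPC encodes glycophorins C and D, which carry the Gerbich blood group antigens. Its FPKM was 34.7 (bounds 31.5 to 37.9), the highest of the members and rank 1074 of all entries (percentile 98.2). The gene (ENSG00000136732.14) spans chr2:126655933-126696675 on the plus strand of GRCh38. GYPB encodes glycophorin B, the carrier of the S and s antigens, and was lower. Its FPKM was 9.87 (6.22 to 13.5), rank 4360 (percentile 92.5), at chr4:143996104-144019345 on the minus strand. The glycophorins thus differed 3.51-fold, and their bounds were apart by at least 2.33-fold.

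GYPB has near-copies, GYPE among them, so its value is uncertain. Its MANE transcript shared windows of 100 bases with a transcript of another gene, but 0 of its 465 such windows with GYPE. Of the other members, GYPC, RHAG, ANK1, SPTB, KEL and SLC4A1 shared no window of 100 bases of their MANE transcripts with a transcript of another gene. GYPB also had the widest bounds of the 6 members at FPKM 1 or more, at 37.0% of its value on either side, against 7.57% for RHAG. GYPE had an FPKM of 8.03 (6.52 to 9.53) and overlapped GYPB. Both lay below GYPC with bounds apart.

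Among the skeleton and anchor genes, ANK1 was the highest. It encodes ankyrin 1, the adaptor between β-spectrin and band 3, and is altered in hereditary spherocytosis. Its FPKM was 32.8 (29.6 to 36.0), rank 1174 (percentile 98.0), at chr8:41653220-41896762 on the minus strand. SPTB, the erythroid β-spectrin gene, had an FPKM of 13.2 (11.9 to 14.4), rank 3377 (percentile 94.2), at chr14:64746283-64879883 on the minus strand. ANK1 was therefore 2.49 times as high as SPTB per length, with bounds apart, although their proteins bind each other in the membrane. EPB42 encodes protein 4.2, which sits with band 3 and ankyrin. Its FPKM was 0.484 (0 to 1.12), rank 16003 (percentile 72.5), which is 67.7-fold below ANK1 and at least 26.3-fold between the nearest bounds.

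The gene model of EPB42 in the table differs from a later one. In the table the gene spans chr15:43106225-43221283 (115059 bp), whereas it covers 23792 bp in GENCODE 44. The longer span overlaps TMEM62, with an FPKM of 5.50 (3.59 to 7.42), and CCNDBP1, with 9.79 (8.22 to 11.4), both on the opposite strand. Of the 2245 windows of 100 bases in the EPB42 transcript, 348 (15.5%) were shared with ENSG00000285117, a non-coding gene annotated at the same place. What these overlaps did to the FPKM was not tested. Both overlapping coding genes were thus higher than EPB42, with bounds apart from it.

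The late erythroid membrane genes were the most divided group. RHAG, the Rh-associated glycoprotein that brings the Rh proteins to the membrane, had an FPKM of 34.3 (31.7 to 36.9), rank 1099 (percentile 98.1), at chr6:49605158-49636839 on the minus strand. KEL, an endopeptidase that carries the Kell antigens, had 10.3 (7.89 to 12.6), rank 4195.5 (percentile 92.8), at chr7:142941114-142962681 on the minus strand. SLC4A1, the gene of band 3 and of the Diego antigens, had 0.193 (0 to 0.711), rank 21757 (percentile 62.7), at chr17:44248385-44268141 on the minus strand. Among protein-coding entries only, its percentile was 36.2 and that of EPB42 was 45.2. SLC4A1 was the lowest member and the only one whose upper bound stayed under 1. RHAG was 178-fold above SLC4A1, and 44.6-fold between the nearest bounds. SLC4A1 and EPB42, whose proteins meet in the membrane, were not apart from each other, and at these bounds neither could be told from 0.

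**Figure D1:**
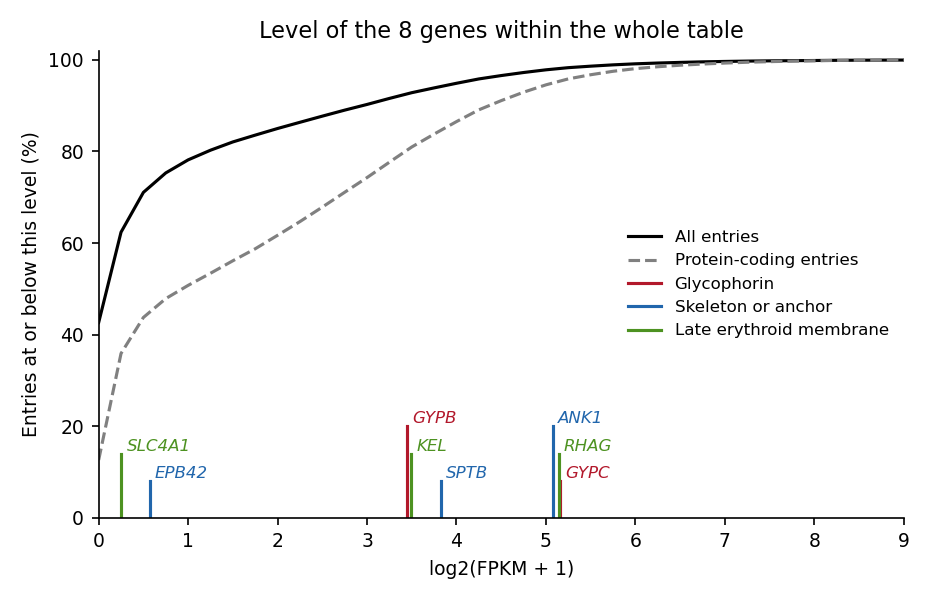
Share of entries (y axis, percent) at or below each level of log2(FPKM + 1) (x axis) in the input RNA, for all entries and for protein-coding entries, with the 8 members as vertical lines coloured by group. The height of a line has no meaning. The 6 higher members lie at percentiles 92.5 to 98.2 of all entries, while EPB42 and SLC4A1 lie at 72.5 and 62.7. Among protein-coding entries the 6 lie at 80.1 to 95.4, and EPB42 and SLC4A1 at 45.2 and 36.2.

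Set against each other by group, the glycophorins had a median FPKM of 22.3 (9.87 to 34.7), the skeleton and anchor genes 13.2 (0.484 to 32.8) and the late genes 10.3 (0.193 to 34.3). On log2(FPKM + 1) the glycophorin median was 0.47 above that of the skeleton genes and 0.81 above that of the late genes. With the bounds of each gene in place of its value, the first difference ran from −0.01 to 0.88 and the second from 0.17 to 1.42. The ranges of the 3 groups overlapped throughout their upper part, because GYPC, ANK1 and RHAG, one from each group, could not be told apart. Without GYPC the differences were −0.38 and −0.051, and with only the members at FPKM 1 or more they were −0.15 and −0.018. The order of the groups therefore turned either without GYPC or without the pair EPB42 and SLC4A1, each the lowest of its group.

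Most members belong to families that also have forms in other tissues. Over 16 pairs of a member and a listed relative, the member was higher with bounds apart in 9, the relative was higher in 3, and bounds overlapped in 4. RHAG stood far above its relatives RHBG, at 0.103 (0 to 0.619), and RHCG, which was listed at 0. ANK1 was above ANK3, at 6.57 (4.62 to 8.52), and ANK2, at 0.280 (0 to 1.27). Every listed relative of RHAG and ANK1 thus lay below its member with bounds apart.

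SPTB was the exception among the higher genes. SPTBN1, the β-spectrin of most non-erythroid cells, had an FPKM of 16.6 (15.7 to 17.5), above SPTB with bounds apart, while SPTBN4 had 0.535 (0 to 1.09). KEL was above ECE1, a related endothelin-converting enzyme, at 6.10 (4.41 to 7.79), with the nearest bounds almost touching. It was also above ECE2, at 1.76 (1.11 to 2.41), MME, at 0.817 (0 to 1.91), and PHEX, at 0.0494 (0 to 0.267).

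For the members near 0 the order was the opposite. SLC4A2, the anion exchanger found in most tissues, had an FPKM of 28.3 (24.4 to 32.2), 146 times the value of SLC4A1 and 34.3 times between the nearest bounds, and SLC4A3 was listed at 0. TGM2, a tissue transglutaminase of the family to which the inactive protein 4.2 belongs, had 9.65 (8.55 to 10.7), 19.9 times the value of EPB42 and 7.61 times between the nearest bounds. TGM1, at 0.0785 (0 to 0.717), overlapped EPB42, and TGM3 was listed at 0. Of these 3 anion exchanger genes, SLC4A2 was thus far above the gene of band 3.

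**Figure D2:**
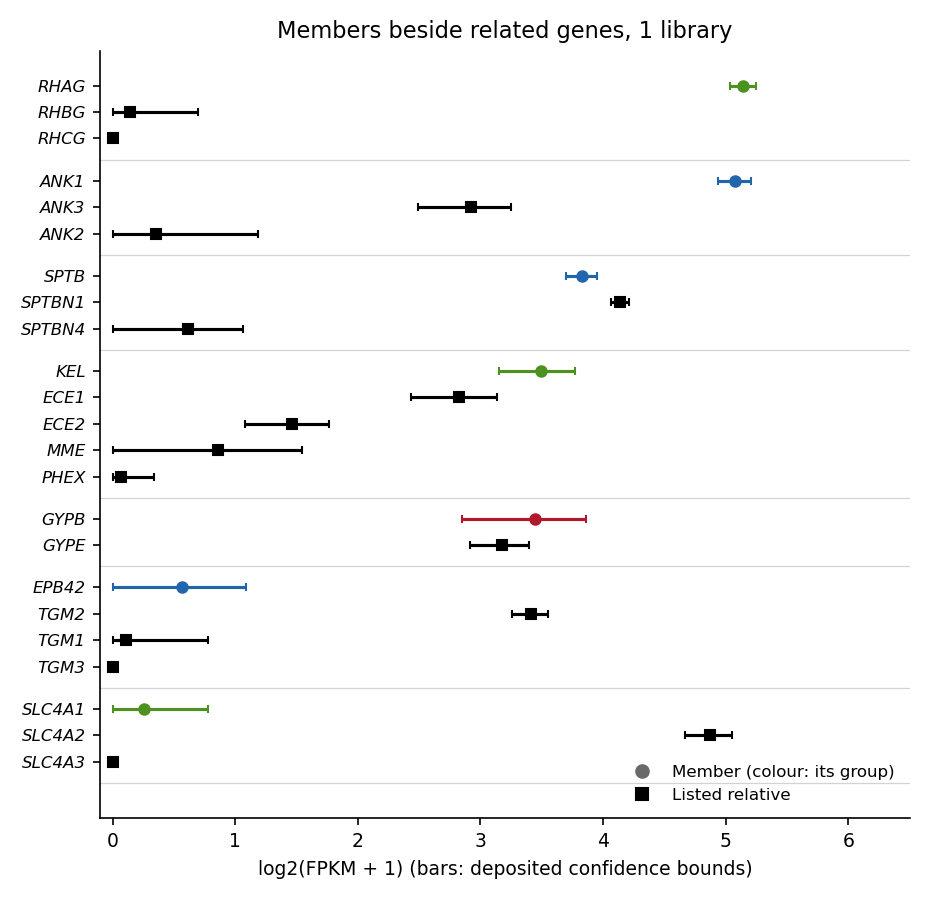
Level of each member (circles, coloured by its group) and of its listed relatives (black squares) on log2(FPKM + 1) (x axis) in the input RNA, with the deposited confidence bounds as bars. SPTBN1, TGM2 and SLC4A2 lie above their member with bounds apart, and the relatives of RHAG and ANK1 lie below.

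The proteins that work beside the members were largely present as transcripts. All 16 other skeleton genes had an FPKM of at least 1, with a median of 20.6, from DMTN (dematin, an actin-bundling protein) at 2.01 to ACTB (β-actin) at 169. EPB41, the protein 4.1 to which GYPC binds, had 83.3 (77.2 to 89.3), after TPM3 (a tropomyosin) at 120. EPB42 was therefore low beside a skeleton of which every other listed gene was detected.

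Of 28 other blood group carriers, 18 had an FPKM of at least 1, with a median of 3.68. EMP3 (26.5) and BSG (24.4) were among the highest and ABCG2 (0.0720) was the lowest. The direct partners of RHAG and KEL stood below them. RHD had 3.27 (2.43 to 4.12) and RHCE 3.16 (1.87 to 4.45), near-copies that overlapped each other, against 34.3 for RHAG. XK, which is bound to the Kell protein, had 4.56 (4.10 to 5.03) against 10.3 for KEL, and CD47, another protein of the Rh complex, had 8.12 (6.37 to 9.87). RHAG was apart from RHD, RHCE and CD47, and KEL was apart from XK. The 4 lists of other red cell genes, including those of enzymes and transporters, held 47 of 65 genes (72.3%) at FPKM 1 or more. Beside this stand 9728 of the 19757 protein-coding entries.

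**Figure D3:**
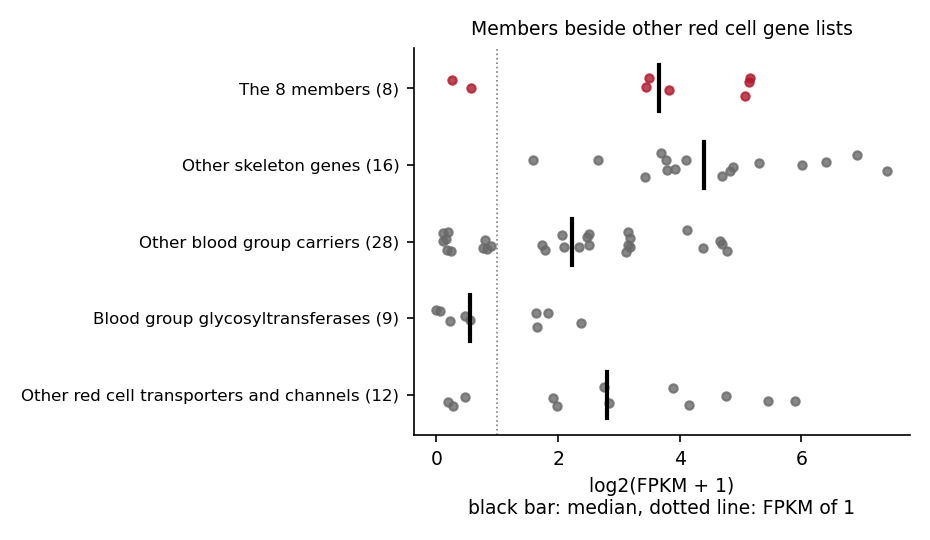
Level of the 8 members and of the genes of 4 other lists on log2(FPKM + 1) (x axis) in the input RNA, 1 point per gene (the vertical spread inside a row has no meaning), with the number of genes in brackets and the median as a black bar. Every other skeleton gene lies right of the dotted line at an FPKM of 1, while most glycosyltransferases lie left of it. Of all protein-coding entries, 9728 of 19757 reach that level.

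As a check of the label, all 13 erythroid marker genes had an FPKM of at least 1 (1.28 to 218). Of 16 markers of T cells, B cells, myeloid, epithelial and fibroblast cells, 4 did (EPCAM 27.9, CD3D 6.29, LYZ 5.76 and COL1A2 1.25). CD79A, CD14, ELANE and CDH1 were listed at 0. Beside both counts of markers stand 9728 of the 19757 protein-coding entries at FPKM 1 or more. The summed FPKM was 725 over the erythroid markers and 43.1 over the others, but such sums weigh the highest genes most. The medians were 14.7 and 0.158, and EPCAM lay above the erythroid median. The part of the non-erythroid marker genes in the levels of the members was not tested. The depth of the input library is unknown, since FPKM keeps no count, and its bounds stand in for it.

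EZH2 RIP-seq fragments lay in 3 of the 8 members, GYPC, RHAG and ANK1, each with 1 fragment, while 0.582% of all entries (339) held at least 50% of one. These were the 3 members with the highest FPKM. Of the entries at FPKM 1 or more, 2.44% held a fragment, and of the 1316 entries at FPKM 30 or more 4.64% did, a level chosen after the values were seen. All 3 fragments lay wholly in an intron of the MANE transcript and shared no base with an annotated exon of the same gene. Exons of other genes were not checked. The depth behind the counts is that of the listed fragments, from 7929 reads in cytoplasmic RNA to 106051 in nuclear polyA− RNA, and not that of whole libraries. Ratios are therefore given of counts as deposited, with 95% intervals by the exact Clopper-Pearson method, which account for counting error alone. The strand setting of the counting is not given in the sources used here, so reads from an antisense transcript could be included.

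The GYPC fragment (chr2:126669972-126674242, 4271 bp) lies in intron 1 of 3, which is 33942 bp long. It had 4 reads in cytoplasmic RNA and 55 in nuclear RNA, a ratio of 13.8 (5.08 to 52.2). Of nuclear RNA, the polyA+ library had 36 reads and the polyA− library 65, a ratio of 1.81 (1.18 to 2.79). The counts as deposited were thus highest in the nuclear and polyA− libraries, which also had the most reads over all fragments.

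The RHAG fragment (chr6:49626198-49630635, 4438 bp) lies in intron 1 of 9, which is 17293 bp long. It had 5 cytoplasmic and 120 nuclear reads, a ratio of 24.0 (10.0 to 75.3). The polyA+ library had 46 reads and the polyA− library 137, which gave 2.98 (2.12 to 4.26). Per kilobase it carried 27 nuclear reads against 12.9 for GYPC, although the genes had the same FPKM within their bounds. Over all 900 fragments the nuclear library carried 42.8 reads per kilobase, as summed reads over summed length, and both fragments were below that pooled value. By reads per fragment, not corrected for length, both lay above the median of 53.5, with 55 for GYPC and 120 for RHAG.

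To show the RNA of such an intron, the 200 bases with the most purines (A or G) in the GYPC fragment are printed on the strand of the gene, as in GRCh38. The stretch is chr2:126671941-126672140 on the plus strand, with 71% purines. Capitals mark runs of at least 8 purines, of which it had 3 (the longest of 15 bases).
GYPC intron 1: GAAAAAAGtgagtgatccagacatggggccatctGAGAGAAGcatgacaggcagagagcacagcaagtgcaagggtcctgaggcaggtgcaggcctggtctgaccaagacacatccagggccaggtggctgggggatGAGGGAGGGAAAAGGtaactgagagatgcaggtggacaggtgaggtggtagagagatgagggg

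Over their whole length the fragments were close to their genes in purine content. Purines made up 51.1% of the GYPC fragment and 48.6% of the gene, and 52.2% of the RHAG fragment and 52.0% of the gene. G made up 25.8% of the RHAG fragment against 20.4% of the gene, and 26.7% of the GYPC fragment against 24.1% of the gene. G and C together made up 49.9% of the RHAG fragment against 39.7% of the gene, and 55.3% of the GYPC fragment against 50.2% of the gene. The printed stretch was picked for its purines, so its high share is no finding.

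The ANK1 fragment (2141 bp, bases 41734883 to 41737023 of the chromosome) lies in intron 2 of 42, which is 23966 bp long, and had far fewer reads. It had 3 cytoplasmic and 15 nuclear reads, a ratio of 5.00 (1.41 to 26.9). From 7 reads in the polyA+ and 12 in the polyA− library, the ratio was 1.71 (0.622 to 5.14), and its interval includes equal counts. Purines made up 50.1% of the fragment and 50.2% of the gene, G 25.7% and 25.4%, and G and C together 50.1% and 49.3%.

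The fragments of members were read against all listed fragments, since the libraries could not be scaled by their totals. The median nuclear to cytoplasmic ratio over the 688 fragments with a cytoplasmic read was 22.0 (quartiles 10.5 and 39). RHAG lay near it, GYPC between the lower quartile and the median, and ANK1 under the lower quartile, although the interval of each of the 3 includes 22.0. Fragments with no cytoplasmic read have no finite ratio and were left out. This median and its quartiles can therefore be too low, and the same holds for the polyA ratio. The median polyA− to polyA+ ratio was 3.54 (quartiles 1.60 and 7, 840 fragments), and all 3 members were below it. When the ratio of the read sums over all fragments (13.3 and 1.83) was divided out, the nuclear to cytoplasmic ratio was 1.03 for GYPC, 1.80 (0.751 to 5.65) for RHAG and 0.375 (0.106 to 2.02) for ANK1. On this scale only the polyA− to polyA+ ratio of RHAG, at 1.63 (1.16 to 2.33), had an interval clear of 1. Against the median fragment it did not stand out. Its ratio as deposited, 2.98 (2.12 to 4.26), was below the median of 3.54, with an interval that includes it. The side on which RHAG fell thus depended on the reference. The higher nuclear counts were therefore shared with the listed fragments as a whole.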

How the data were processed

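RNA was measured in 5 libraries of wild-type K562 cells, 1 of RIP-seq input RNA and 4 of fractionated RNA. According to the methods of the study, libraries were depleted of rRNA and made with a stranded kit, reads were trimmed with TrimGalore and mapped with STAR to GRCh38 with GENCODE 26, and alignments that were PCR duplicates or had a mapping quality below 20 were dropped. The FPKM per gene and its confidence bounds were made by the authors with cuffdiff, whose confidence level is not given in the sources used here. The deposited read counts per EZH2 RIP-seq fragment were made by the authors with featureCounts and were not normalized. By the usual quality values of STAR, the filter on mapping quality drops reads that map to several places.

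Members were taken by symbol, and the members and gene lists were chosen with earlier results of these data known. Levels were compared as FPKM, ranks with tied entries at their mean rank, and groups by the median of log2(FPKM + 1), a pseudocount of 1 that understates differences among low genes. With 1 library there is no test between conditions. The genes named were all members, their listed relatives, and of each other list the 3 highest, the lowest above 0 and those at 0, together with EPB41, XK, RHCE, RHD, GYPE and CD47. Some genes that the rule names are not reported here, and counts and medians of the other lists are over all their genes. TMEM62 and CCNDBP1 were named after their values were seen. Starts in the FPKM table were raised by 1, which matched GENCODE 44 for 44748 of 57511 entries. Fragments were assigned with at least 50% of their length in a gene. Gene type, strand, introns and shared windows came from GENCODE 44, and promoters from RefSeq. The scripts were tested on simulated data. The software was pandas 2.3.3, numpy 2.4.6 and scipy 1.17.1 under Python 3.11.15, with matplotlib 3.10.9 for plots. The alternatives tried were other FPKM thresholds, the bounds in place of the value, other sets of entries for the ranks, TPM, the mean in place of the median, leaving out a glycophorin, and, chosen after seeing the data, the upper bound as a threshold, other window lengths and a scale for the fragment ratios. The 4C-seq, ChIP-seq, Nanopore and immunoprecipitated RNA samples were not analysed here.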

Additional observations from a re-analysis of the deposited data

How the results depend on the processing

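The number of members at FPKM 1 or more stayed at 6 with a threshold of 0.5 or 5 and with a lower bound above 0. It was 8 at a threshold of 0.1 and 7 when the upper bound had to reach 1, a rule chosen after seeing the data. The shares of all entries past these other rules were not counted. For scale, 62.4% of all entries and 35.9% of protein-coding entries lay at or below 0.25 on log2(FPKM + 1). At or below 2.5 lay 87.7% and 67.9%. Many other genes thus also pass a low threshold. The differences between groups were the least stable results. The glycophorins minus the skeleton genes, 0.47 on log2(FPKM + 1), was 1.33 without GYPB, −0.38 without GYPC, 1.14 with means and −0.15 with only the members at FPKM 1 or more. The glycophorins minus the late genes, 0.81, was 1.66 without GYPB, −0.051 without GYPC and −0.018 with only those members. The median percentile of the members, 93.5 of all entries, was 88.8 of the entries above 0 and 82.8 of the protein-coding entries. Their median FPKM of 11.7 became 56.6 as TPM, which rescales all genes alike. On a scale chosen after seeing the data, the ratio of read sums over all fragments, the polyA− to polyA+ ratio of the GYPC fragment went from 1.81 to 0.987 and the nuclear to cytoplasmic ratio of the ANK1 fragment from 5.00 to 0.375, so both changed side of 1. The count over the 4 other lists, 47, was 61 at a threshold of 0.1 and 50 by the lower bound. No paired analysis was possible because each group used here has 1 library and no result comes from a test. The bounds do not cover the spread between cultures, and values of EPB42 and SLC4A1 have bounds that reach 0.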

Other observations

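Of the 9 glycosyltransferases that make carbohydrate blood group antigens, 4 had an FPKM of at least 1, with a median of 0.464. That share, 44.4%, was close to the 9728 of 19757 protein-coding entries. FUT1, which makes the H antigen, had 4.21 (3.21 to 5.20), GCNT2, the I-branching enzyme, 2.57 (1.17 to 3.98) and GBGT1, the Forssman synthase, 2.16 (1.44 to 2.87). ABO, outside the naming rule and named after its value was seen, had 2.11 (1.78 to 2.45). B4GALNT2, of the Sda antigen, was the lowest above 0 at 0.0350, and A4GALT, of the P1PK system, was listed at 0. At a threshold of 0.1 the count was 7 of 9, and the share of all entries at that threshold was not counted.

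Of 12 other red cell transporters and channels, 9 had an FPKM of at least 1, beside 9728 of the 19757 protein-coding entries. The median of the 12 was 5.97. Among the highest were PIEZO1, a mechanosensitive channel, at 42.9 (38.0 to 47.7) and SLC16A1, a lactate transporter, at 26 (23.8 to 28.2). XKR8, a relative of XK, was the lowest at 0.140 (0 to 0.539). PIEZO1 was above every member of the membrane and blood group set with bounds apart.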
